A study of Homo sapiens with 4 samples.

Results

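The siRNA-transfected libraries of HCT116 cells were compared with the plasmid-transfected libraries of the same cells, gene by gene. HCT116 is an established human colon cancer cell line of epithelial origin, and the comparison used all 4 libraries of the series, 2 on each side. The siRNA pair held 1 library of cells given scramble siRNA at 100 nM and 1 of cells given 3 siRNAs against TTC22 at 100 nM in total. The plasmid pair held 1 library of cells given 2 µg of a control vector and 1 of cells given 2 µg of pCMV-entry-TTC22, which drives the form TTC22V1 from the strong CMV promoter. TTC22 encodes a protein with tetratricopeptide repeats. Total RNA was taken 48 h after transfection in all 4 groups, and poly-A RNA was sequenced as paired ends. No untransfected cells were among the samples. The siRNA pair and the plasmid pair differed in the experiment, in what was transfected and in the state of the cultures, and these cannot be told apart here.

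Libraries of growing cells carry a strong record of the cell cycle. Genes of DNA replication are transcribed in late G1 and S phase under E2F factors, and genes of mitosis in G2 and M phase under the MuvB complex with MYBL2 and FOXM1. In cells that stop dividing, the DREAM complex represses both groups, through promoter elements called CHR and through E2F sites. Cultures also differ in oxygen and nutrient supply: when oxygen is short, HIF factors bind ACGTG cores and raise glucose transporters, glycolytic enzymes and genes such as NDRG1 and ANGPTL4. Transfection itself can engage sensors of foreign nucleic acid, which raise interferon-stimulated genes.

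The joined tables listed 47251 genes. With TTC22 left out, 10132 of the 47250 others had a mean of at least 1 FPKM (fragments scaled to transcript length and library size) over the 4 libraries and are called measured. The summed FPKM was 181102 in scramble, 205734 in knockdown, 192908 in vector and 188638 in overexpression. The number of sequenced reads was unknown, so no counting error can be given. TTC22 itself stood at 10.7 FPKM in scramble, 6.54 in knockdown, 4.46 in vector and 24215 in overexpression, the order its labels give within each experiment. Epithelial markers were high in every library: EPCAM lay between 101 and 132 FPKM and KRT8 between 291 and 357 FPKM. Of 19 markers of blood, stromal, endothelial and liver cells, 2 reached 1 FPKM in any library (HBA1 and COL1A1), and their summed level was between 4.02 and 4.19 FPKM in the siRNA pair and between 5.00 and 7.57 FPKM in the plasmid pair. CD3E, the T cell marker, was at 0 in all 4 libraries. Mitochondrial transcripts varied widely between libraries: MT-RNR2 stood at 12882 FPKM in knockdown and at 39.5 in scramble, and MT-CO1 at 0 in scramble and at 4429 in knockdown. MT-RNR2 is 1 of the genes called higher below, and no gene list holds mitochondrial transcripts.

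The pairs differed from each other far more than the libraries within a pair. Levels were compared as log2(FPKM + 1) after each library had been centred on its median. Within an experiment, 4.32% of measured genes lay at least 1 log2 unit (2-fold) apart between scramble and knockdown, and 5.19% between vector and overexpression. Between the experiments this share was 17.1% for scramble against vector, 15.3% for scramble against overexpression, 18.7% for knockdown against vector and 16.7% for knockdown against overexpression. The share was lowest for scramble against overexpression and highest for knockdown against vector, and what sets it was not tested. The median size of a gene's difference was 0.18 and 0.19 log2 units within the experiments and between 0.41 and 0.48 across them.

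**Figure D1:**
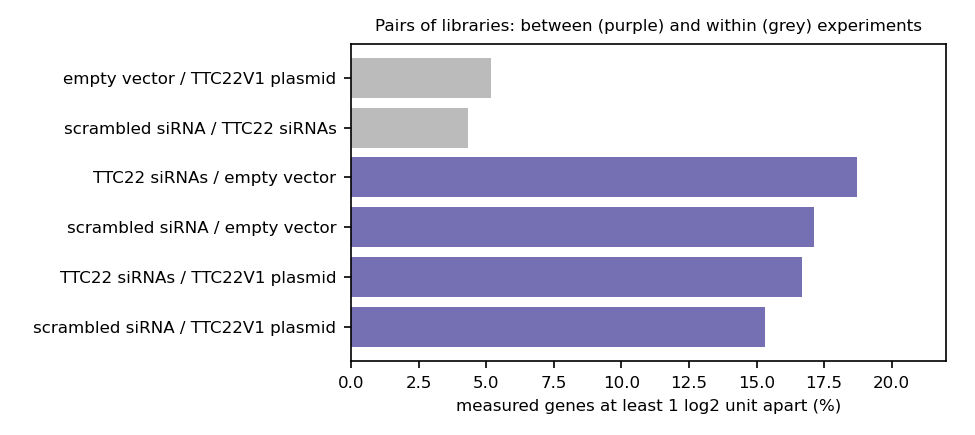
Share of the 10132 measured genes that lay at least 1 log2 unit apart (x axis, percent) for each of the 6 pairs of libraries. Grey bars are pairs within an experiment (4.32 and 5.19%) and purple bars pairs across the experiments (15.3 to 18.7%).

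A gene was called higher or lower in the siRNA pair when each of its siRNA libraries lay at least 1 log2 unit beyond each plasmid library. This rule of size takes the place of a test. The 2 libraries of a pair had different treatments and are not replicates, so no p-value is given, and every value describes these 4 libraries. By this rule 351 genes were higher (3.46% of those measured) and 368 lower (3.63%), 7.1% in all. A weaker statement, that both siRNA values lay on the same side of both plasmid values, held for 3567 genes above (35.2%) and 3485 below (34.4%), 69.6% in all, so a lack of overlap alone was the usual state of a gene. The balance of higher and lower calls depended on the scaling: with values as deposited and no centring it was 220 higher and 505 lower, and with every library set to the same sum without TTC22 it was 169 and 658. Those scalings moved the median difference of all measured genes from 0.01 to -0.15 and -0.24, and the differences below are relative to centred libraries. Called genes differed by a median of 1.54 log2 units between the pairs and by a median of 0.26 in the larger of the differences within the pairs. The rule selects for a wide gap, so these medians describe the called genes and are no support for the calls. Calls were more frequent among abundant genes, from 3.22% of genes with a mean of 1 to 2 FPKM to 14.9% of those above 100 FPKM.

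**Figure D2:**
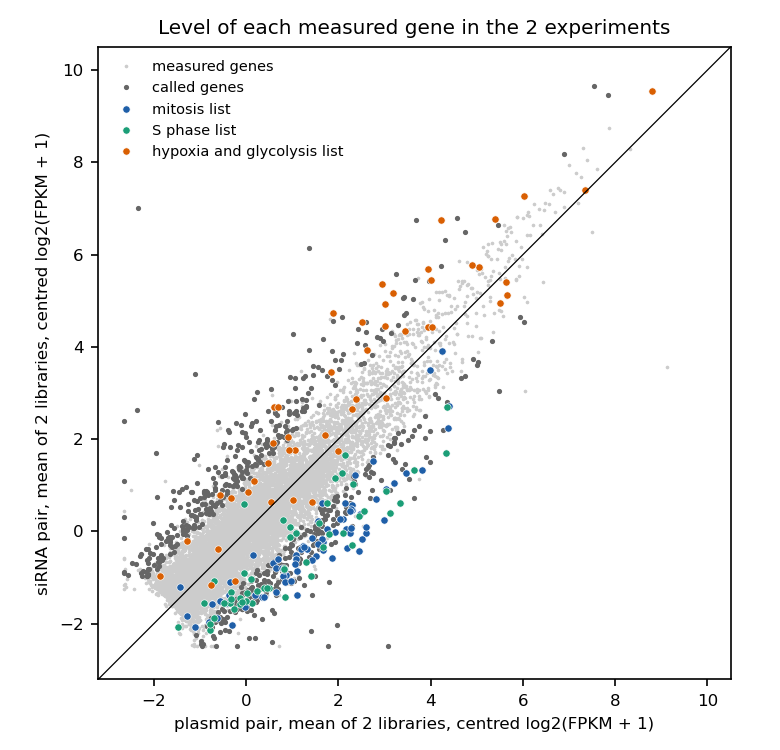
Mean centred log2(FPKM + 1) of the siRNA pair (y axis) against that of the plasmid pair (x axis) for each of the 10132 measured genes, with called genes dark and 3 gene lists coloured. Of the mitosis and S phase genes all but LIN54 and CCNE1 lie below the diagonal of equal levels (55 of 78 and 34 of 51 called lower), and 16 of 47 genes of the hypoxia and glycolysis list were called higher.

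The 3 genes given as markers of the comparison, chosen with earlier results of these data known, separated the pairs clearly. CCNB1, cyclin B1, the partner of CDK1 that drives entry into mitosis (chr5:69167135-69178245 on hg38, 9 exons), stood at 10.9 FPKM in scramble and 15.8 in knockdown, and at 96.6 in vector and 78.1 in overexpression. The siRNA libraries were the low ones, with no overlap and a difference of means of -2.47 log2 units. NDRG1, a stress gene raised by hypoxia (chr8:133237175-133302022, 16 exons), stood at 421 and 874 FPKM in scramble and knockdown and at 114 and 119 in vector and overexpression. The siRNA libraries were the high ones, by 2.54 log2 units, although they also lay 1.07 apart from each other. CD68, a glycoprotein of late endosomes and lysosomes (chr17:7579491-7582111, 6 exons), stood at 42.6 and 37.2 FPKM against 6.34 and 5.76. Here the libraries within each pair nearly coincided and the pairs lay 2.70 log2 units apart. CD68 is also used as a macrophage marker, and PTPRC, which marks all leukocytes, stood at 0.00276 FPKM or less in every library.

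Among well measured genes with 4 or more exons, the widest separation upward belonged to DUSP5, the nuclear phosphatase of ERK, whose gene ERK signalling itself induces. It stood at 343 FPKM in scramble and 452 in knockdown against 13.9 in vector and 16.9 in overexpression, a difference of 4.77 log2 units with no overlap. TOMM20, a receptor for protein import in the mitochondrial outer membrane, stood at 106 and 108 FPKM against 12.4 and 11.1. It has near-identical processed copies in the genome, and how the authors' counting split such reads is not given in the sources used here. FA2H, which hydroxylates fatty acids for sphingolipids, stood at 29.7 and 26.5 FPKM against 3.18 and 3.02. The pairs again did not overlap, and the libraries of each pair were close.

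The other genes among the 12 with the widest gaps upward were less uniform in role. F3, tissue factor, which starts blood coagulation, stood at 86.8 and 81.6 FPKM against 15.8 and 14.6. PPP3R1, the regulatory subunit of calcineurin, stood at 24.5 and 23.4 against 3.97 and 3.72, and MSMO1, a demethylating oxidase of cholesterol synthesis, at 48.1 and 45.0 against 8.49 and 7.96. In each case the siRNA libraries were high and the plasmid libraries low without overlap. GALNT3, which starts mucin-type O-glycosylation, SLC9A7, a sodium-proton exchanger of the Golgi, the growth factor PDGFA and ANGPTL4, a secreted inhibitor of lipoprotein lipase, were separated by 2.72, 2.45, 2.58 and 2.41 log2 units. The 12 are completed by CD68 and by the readthrough transcript TMED7-TICAM2 (2.79 log2 units), which shares exons with TMED7 and is uncertain for that reason.

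The widest separations downward were mostly genes of the cell cycle. Of the 12 taken by the same rule, 10 belonged to the mitosis or S phase list, which together make up 129 of the 10132 measured genes (1.27%). Both lists were chosen with earlier results of these data known. MYBL2, the transcription factor that opens the G2/M programme (chr20:43667019-43716495), stood at 2.89 FPKM in scramble and 3.45 in knockdown against 40.2 in vector and 28.0 in overexpression. BIRC5, survivin of the chromosomal passenger complex, stood at 5.27 and 6.07 FPKM against 54.7 and 43.2. Both siRNA libraries were low for these genes, and the pairs lay 2.89 and 2.73 log2 units apart. Outside those lists were PRR13 (1.67 and 1.60 FPKM against 18.4 and 23.6) and HNRNPM, a splicing factor that binds pre-mRNA (11.6 and 11.0 FPKM against 77.0 and 66.9). Among the 50 lowest genes 32 were on the mitosis or S phase list, and of all 368 lower genes 89 were (24.2%), against 0 of the 351 higher genes.

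The promoters of mitosis genes are shown because the elements that time them are known and lie close to the start site. The windows run from 250 bases before to 50 bases after the start, as RefSeq gives them on GRCh38.p14, and 70 of the 78 genes of the mitosis list had one. CHR elements (TTTGAA) and CCAAT boxes (CCAAT), the latter bound by NF-Y, were sought on both strands and are in capitals, so a match on the other strand reads TTCAAA or ATTGG. The CCNB1 window (chr5:69166900-69167199, plus strand) held 2 CCAAT boxes and no TTTGAA, and PLK1 (chr16:23678639-23678938, plus strand) held 1 of each. CDCA8 (chr1:37692266-37692565, plus strand) held 3 CCAAT boxes, 1 of which shares a base with the CHR element. CENPF (chr1:214602945-214603244, plus strand) held 4 CCAAT boxes and a CHR element downstream of the start. CCNB1 is a given marker, while PLK1, CDCA8 and CENPF were taken by gap among called members whose windows held both elements. Holding both was thus a condition of being shown. MYBL2, CCNA2 and KIF20A had wider gaps, and their windows held no TTTGAA.
CCNB1: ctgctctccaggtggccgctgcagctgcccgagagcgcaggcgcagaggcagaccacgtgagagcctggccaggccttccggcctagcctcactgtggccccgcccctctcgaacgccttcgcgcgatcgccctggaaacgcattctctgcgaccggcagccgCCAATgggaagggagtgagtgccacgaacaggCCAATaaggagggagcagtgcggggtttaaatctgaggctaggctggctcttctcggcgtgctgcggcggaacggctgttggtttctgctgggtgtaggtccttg
PLK1: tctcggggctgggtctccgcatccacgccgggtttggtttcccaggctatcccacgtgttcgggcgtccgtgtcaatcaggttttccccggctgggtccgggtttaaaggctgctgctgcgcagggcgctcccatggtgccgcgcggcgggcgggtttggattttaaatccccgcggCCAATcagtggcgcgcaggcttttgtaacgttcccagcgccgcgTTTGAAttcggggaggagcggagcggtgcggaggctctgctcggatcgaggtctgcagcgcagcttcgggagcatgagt
CDCA8: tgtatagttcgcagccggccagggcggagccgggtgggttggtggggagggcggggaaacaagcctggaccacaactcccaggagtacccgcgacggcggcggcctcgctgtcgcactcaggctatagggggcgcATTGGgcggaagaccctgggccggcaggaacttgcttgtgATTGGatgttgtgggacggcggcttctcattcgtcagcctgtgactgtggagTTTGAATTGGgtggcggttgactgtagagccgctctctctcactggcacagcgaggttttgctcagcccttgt
CENPF: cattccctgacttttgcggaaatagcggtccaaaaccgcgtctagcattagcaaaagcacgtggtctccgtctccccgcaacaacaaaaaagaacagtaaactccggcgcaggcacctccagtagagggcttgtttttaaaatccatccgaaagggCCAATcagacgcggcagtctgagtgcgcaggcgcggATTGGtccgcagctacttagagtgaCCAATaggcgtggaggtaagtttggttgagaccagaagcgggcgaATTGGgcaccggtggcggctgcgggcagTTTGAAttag

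Over the mitosis list, 49 of 70 promoters (70.0%) held TTTGAA, 51 (72.9%) held CCAAT and 37 (52.9%) held both. Among all 27305 promoters in the table the shares were 15.6, 35.6 and 6.15%, and among the 8116 measured genes with a promoter they were 9.31, 36.3 and 4.0%. The list was chosen by function, and CHR elements are known from genes of this kind. The share was also taken over genes called lower that are in neither the mitosis nor the S phase list. These were called from the same data and may include cell cycle genes outside those lists. Of 214 such promoters 53.3% held CCAAT and 16.4% held TTTGAA, while of 267 promoters of genes called higher 30.3% held CCAAT and 7.49% held TTTGAA. These matches describe letters in a window and do not show that a factor binds.

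All but 1 of the 78 mitosis genes had lower values in both siRNA libraries than in either plasmid library. By the rule of size 55 were lower and 0 higher, against 3.63% of all measured genes called lower, and the median difference of the list was -1.74 log2 units against 0.01 over all measured genes. In bulk RNA, fewer cells in a phase of the cycle and less RNA per cell cannot be told apart. Among mitotic cyclins, kinases and phosphatases 13 of 17 were called lower. PLK1, the kinase needed for centrosome maturation and mitotic exit, stood at 3.18 and 5.02 FPKM in scramble and knockdown against 40.9 and 29.4 in vector and overexpression. CCNA2, cyclin A2, stood at 3.92 and 5.02 against 38.4 and 35.8, and AURKB, the kinase of the chromosomal passenger complex, at 4.04 and 4.97 against 32.6 and 25.8. The siRNA libraries were the low ones in all of these, without overlap.

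The parts of the mitotic machinery shared this order. The calls in each part stand beside 3.63% of all measured genes called lower. Of 24 genes of spindle motors and cytokinesis 19 were called lower, among them KIF20A, a kinesin of the central spindle, at 3.09 and 3.64 FPKM against 30.7 and 24.9. Of 17 genes of the kinetochore and chromosomal passenger complex 10 were called, among them CENPF at 0.779 and 1.65 FPKM against 12.5 and 12.4. Of 7 genes of the anaphase-promoting complex and checkpoint 5 were called, among them its activator CDC20 at 19.7 and 33.3 FPKM against 158 and 107. Scramble was the lowest library in each of these genes. Of 9 genes of chromosome structure 6 were called, among them TOP2A, which untangles sister chromatids, at 2.85 and 7.10 FPKM against 23.1 and 23.0, and MKI67, the proliferation antigen Ki-67, at 2.73 and 3.84 against 21.4 and 16.8. Of the transcription factors of the programme, MYBL2 and FOXM1 (1.94 and 2.28 FPKM against 14.0 and 11.4) were called, while the MuvB subunits LIN9 (-0.55 log2 units) and LIN54 (0.21 log2 units) were not. LIN54 was the 1 list member with higher centred values in both siRNA libraries.

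Mitosis genes also differed within the siRNA pair. Knockdown lay above scramble in 73 of 78 members, by a median of 0.42 log2 units, while overexpression lay 0.09 above vector at the median. The separation of the pairs was larger than this, with medians between -2.03 and -1.47 in the 4 comparisons of an siRNA library with a plasmid library.

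**Figure D3:**
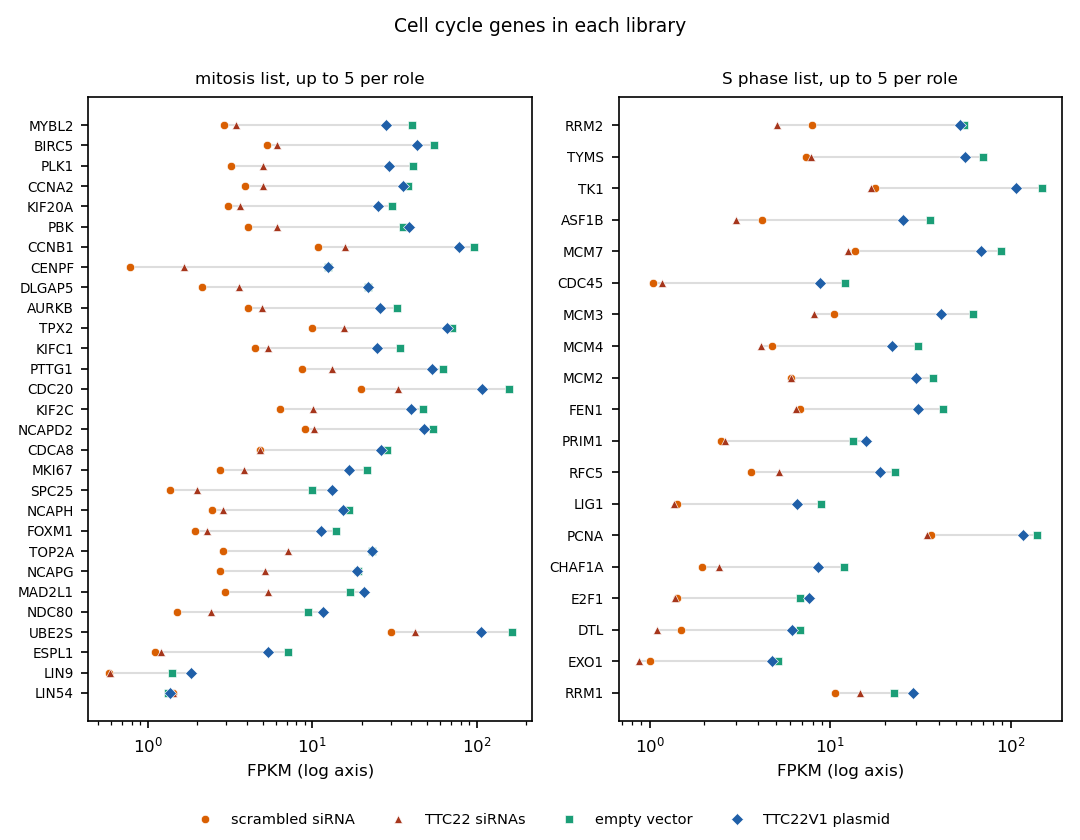
FPKM (log axis) of mitosis genes (left) and S phase genes (right) in each of the 4 libraries, for up to 5 members per role with large differences of means. Circles (scramble) and triangles (knockdown) lie to the left of squares (vector) and diamonds (overexpression), as for CCNB1 at 10.9 and 15.8 against 96.6 and 78.1; LIN54 is the exception.

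Genes of DNA replication were lower to a similar degree. Of 53 listed S phase genes 51 were measured, 34 were called lower and 0 higher, against 3.63 and 3.46% of all measured genes. The median difference was -1.42 log2 units. CCNE1, cyclin E1, named after its value was seen, was the 1 member above, at 0.65 log2 units and without overlap. E2F sites were sought as TTTGGCGC, TTTCCCGC, TTTCGCGC or TTTGCCGC on both strands, a set chosen after values had been seen. They occurred in 23 of 46 S phase promoters, in 3.27% of all promoters, in 5.53% of promoters of measured genes and in 4 of 70 mitosis promoters (5.71%), whereas TTTGAA occurred in 2 of the 46 (4.35%). The windows of TYMS (chr18:657403-657702, plus strand) and MCM2 (chr3:127598161-127598460, plus strand) are shown with the E2F matches in capitals. Both were taken by gap among called members whose windows held a match, so holding it was a condition of being shown. TK1, RRM2 and ASF1B, among the 12 lowest gaps, had no match in their windows. In MCM2 a match on each strand overlap in a palindrome just after the start.
TYMS: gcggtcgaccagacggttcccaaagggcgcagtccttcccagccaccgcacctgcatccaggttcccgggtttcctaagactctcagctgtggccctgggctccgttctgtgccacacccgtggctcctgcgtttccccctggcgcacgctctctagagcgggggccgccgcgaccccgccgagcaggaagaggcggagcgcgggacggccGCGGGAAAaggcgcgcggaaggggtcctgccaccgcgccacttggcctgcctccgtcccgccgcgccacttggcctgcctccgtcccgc
MCM2: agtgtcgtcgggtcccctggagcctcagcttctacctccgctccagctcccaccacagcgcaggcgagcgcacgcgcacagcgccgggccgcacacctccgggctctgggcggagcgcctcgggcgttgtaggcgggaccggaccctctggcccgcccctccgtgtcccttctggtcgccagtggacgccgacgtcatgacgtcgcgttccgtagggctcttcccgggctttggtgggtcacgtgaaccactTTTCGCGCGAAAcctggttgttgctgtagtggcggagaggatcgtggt

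Nucleotide supply held the most separated of these genes. TYMS, thymidylate synthase (chr18:657653-673578), stood at 7.35 FPKM in scramble and 7.85 in knockdown against 70.0 in vector and 56.1 in overexpression. TK1, thymidine kinase, stood at 17.8 and 16.7 FPKM against 149 and 107. RRM2, the inducible subunit of ribonucleotide reductase, stood at 7.92 and 5.06 against 55.3 and 52.3, and its partner RRM1 at 10.6 and 14.7 against 22.6 and 28.7. The pairs did not overlap for any of them, but RRM1, at -0.81 log2 units, was not called.

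Origin licensing and the replicative helicase were called lower in 13 of 16 genes. This and the counts that follow stand beside 3.63% of all measured genes called lower. MCM7 and MCM2, subunits of the helicase ring, stood at 13.6 and 12.5 FPKM against 88.2 and 68.9, and at 6.08 and 6.04 against 37.1 and 30.0. The siRNA libraries were low and near each other. Of 14 polymerase and clamp genes 8 were called, among them PCNA, the sliding clamp, at 36.0 and 34.3 FPKM against 140 and 117. FEN1, which removes the ends of Okazaki fragments, stood at 6.81 and 6.42 FPKM against 42.2 and 30.5 and has fewer than 4 exons. Of 15 regulators of G1/S and chromatin assembly 9 were called, with the histone chaperone ASF1B at 4.19 and 3.02 FPKM against 35.6 and 25.3 and E2F1 at 1.41 and 1.38 against 6.78 and 7.66. In contrast to mitosis, knockdown lay above scramble in 18 of 51 S phase genes and the median difference within the siRNA pair was -0.05 log2 units.

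Genes known from arrest in G1 leaned the other way with fewer calls. Of 24 listed CDK inhibitors, pocket proteins and FOXO or quiescence genes 19 were measured, 3 were called higher and 0 lower, against 3.46 and 3.63% of all measured genes. Without overlap 12 lay above and 3 below, against 35.2 and 34.4% of all measured genes, and the median difference was 0.54 log2 units. CDKN1B, the CDK inhibitor p27, stood at 22.3 and 27.7 FPKM in scramble and knockdown against 10.4 and 10.7 in vector and overexpression. KLF6, a zinc finger transcription factor, stood at 54.2 and 60.9 FPKM against 15.8 and 16.6, and IRS2, an adaptor of the insulin receptor and a FOXO target, at 10.9 and 7.57 against 1.70 and 1.79. All 3 were higher in both siRNA libraries. CDKN1A, the CDK inhibitor p21 and a p53 target, stood lower in the siRNA pair, at 67.3 and 66.4 FPKM against 128 and 100, and RBL1, the pocket protein p107, at 0.548 and 0.437 against 2.05 and 1.61. Neither was called. The list of p53 targets as a whole stood near the background, with 0 of 27 higher, 2 lower (FDXR and DDB2) and a median of -0.12 log2 units, which lay between -0.22 and -0.02 with 1 library left out.

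Of the lists taken here, hypoxia and glucose use held the most genes called higher. Of 47 measured members 16 were called higher and 0 lower, against 3.46 and 3.63% of all measured genes, and the median difference was 0.89 log2 units. The promoters of ANGPTL4 (chr19:8363905-8364204, plus strand) and BHLHE40 (chr3:4979187-4979486, plus strand), the latter chosen after its values were seen, are shown with the ACGTG core of HIF sites in capitals. Both were taken among called genes whose windows held the core, so holding it was a condition of being shown. The windows of ADM and MXI1, also on this list, held no core. On the other strand the core reads CACGT, and in BHLHE40 matches on both strands overlap in CACGTG.
ANGPTL4: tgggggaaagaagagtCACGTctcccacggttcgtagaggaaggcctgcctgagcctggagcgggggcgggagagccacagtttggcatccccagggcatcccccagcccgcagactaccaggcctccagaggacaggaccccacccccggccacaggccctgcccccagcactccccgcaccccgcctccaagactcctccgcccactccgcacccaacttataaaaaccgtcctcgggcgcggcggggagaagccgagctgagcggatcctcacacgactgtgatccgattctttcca
BHLHE40: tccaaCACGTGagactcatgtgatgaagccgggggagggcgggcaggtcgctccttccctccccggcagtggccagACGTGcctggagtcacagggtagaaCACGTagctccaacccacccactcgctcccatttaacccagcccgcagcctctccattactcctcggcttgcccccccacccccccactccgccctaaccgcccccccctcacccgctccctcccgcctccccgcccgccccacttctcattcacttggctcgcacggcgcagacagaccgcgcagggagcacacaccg

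The core occurred in 13 of 18 promoters of the hypoxia response genes (72.2%), against 21.4% of all promoters and 27.8% of those of measured genes. Among genes called higher as a whole it occurred in 33.0% of promoters and among genes called lower in 30.0%.

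Of the 20 measured hypoxia response genes 10 were called higher and 18 lay above without overlap, against 3.46 and 35.2% of all measured genes. All 20 had a positive difference, with a median of 1.34 log2 units. ANGPTL4 stood at 245 and 213 FPKM in scramble and knockdown against 49.9 and 44.9 in vector and overexpression. ADM, the vasodilator adrenomedullin, stood at 123 and 135 FPKM against 34.8 and 35.4, and ANKRD37, a small ankyrin repeat protein, at 35.6 and 35.0 against 8.39 and 9.95. Within each pair these values were close, and the siRNA libraries were high. MXI1, an antagonist of MYC, stood at 52.7 and 23.8 FPKM against 7.61 and 9.66, so scramble and knockdown also stood apart. BHLHE40, a transcriptional repressor, stood at 158 and 180 FPKM against 52.3 and 46.8.

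Glucose transport and glycolysis were called higher in 6 of 20 genes, against 3.46% of all measured genes, with a median of 0.71 log2 units. SLC2A3, the high-affinity glucose transporter GLUT3, stood at 194 and 113 FPKM against 20.2 and 24.8, and SLC2A1, the transporter GLUT1, at 307 and 270 against 99.9 and 91.1. GPI, the second enzyme of glycolysis, stood at 242 and 248 FPKM against 106 and 95.8, and the enolase ENO2 at 114 and 132 against 48.1 and 51.6. The siRNA libraries were high in all 4 genes. HK2, hexokinase 2, was above without overlap at 60.0 and 120 FPKM against 36.6 and 38.6 and missed the rule of size. The regulators of HIF itself gave 0 calls among 7 genes, near the 7.1% of all measured genes called in either direction. HIF1A mRNA stood at 7.11 and 8.37 FPKM against 15.8 and 15.96, lower in the siRNA pair. EPAS1, which encodes HIF-2 alpha, stood at 8.42 and 14.0 FPKM against 4.59 and 7.93.

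**Figure D4:**
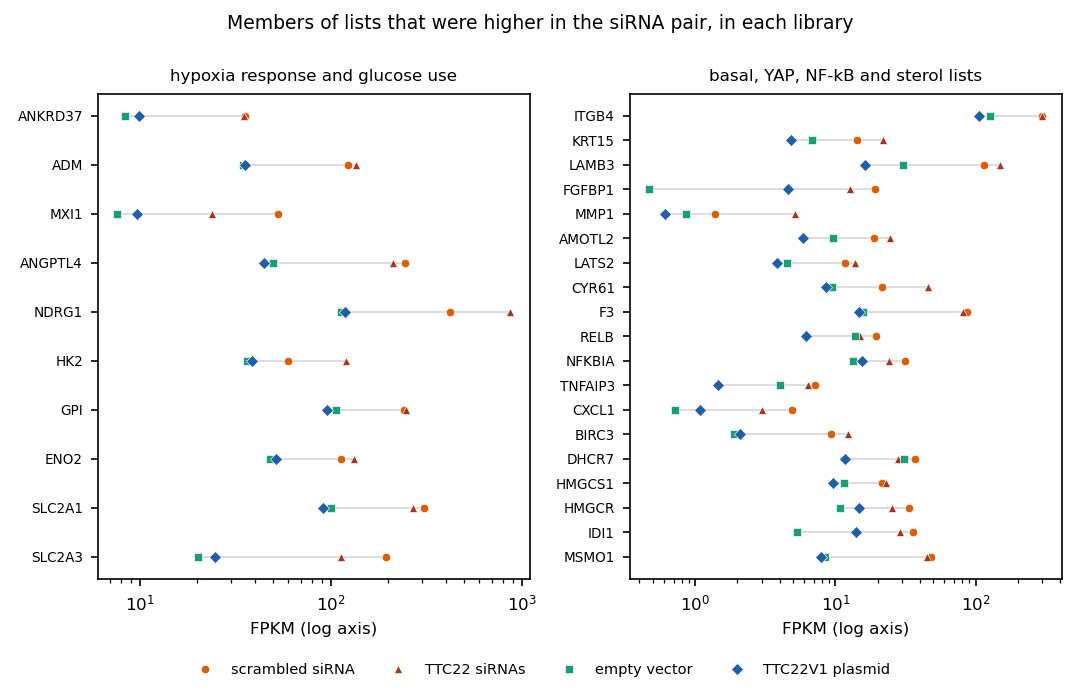
FPKM (log axis) in each of the 4 libraries for list members with the largest differences: hypoxia response and glucose use (left), and the basal epithelial, YAP and TGF-beta, NF-kB and sterol lists (right). In the left panel circles (scramble) and triangles (knockdown) lie to the right of squares (vector) and diamonds (overexpression), as for ANGPTL4 at 245 and 213 against 49.9 and 44.9.

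Growth factor and stress-induced genes also held calls. Of 30 measured immediate early and ERK feedback genes 5 were called higher and 1 lower, against 3.46 and 3.63% of all measured genes. The median difference was 0.78 log2 units. With the same sum in each library it was 0.51, with 1 called higher and 2 lower. Besides DUSP5, ERRFI1, an inhibitor of the EGF receptor, stood at 662 and 546 FPKM in scramble and knockdown against 26.8 in vector and 232 in overexpression. Vector was by far the lowest for this gene, and the nearest libraries lay 1.31 log2 units apart. Of this list 12 members had fewer than 4 exons or a 0 in a library. JUNB, a single-exon AP-1 gene, was listed at 0 in scramble, at 151 FPKM in knockdown, at 115 in vector and at 59.8 in overexpression, and IER3 stood at 4.37, 399, 443 and 386 FPKM. Such values overlapped between the pairs and gave no call.

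The YAP and TGF-beta response list had 4 of 20 measured genes called higher and 0 lower, against 3.46 and 3.63% of all measured genes. CYR61, a matrix protein induced by YAP, stood at 21.5 and 45.8 FPKM against 9.47 and 8.62, and LATS2, the kinase that restrains YAP, at 11.7 and 13.8 against 4.48 and 3.82. AMOTL2, a YAP-binding angiomotin, stood at 18.7 and 24.4 FPKM against 9.63 and 5.91, and F3 completed the called members. Both siRNA libraries were high throughout. The list's median difference of 0.65 log2 units was 0.35 without the overexpression library.

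Basal epithelial genes were called higher in 5 of 18 measured members of 32 listed, against 3.46% of all measured genes. Of the list 14 were not measured, among them, as seen in the values, the basal regulator TP63. LAMB3, a chain of laminin-332 in the basement membrane, stood at 116 and 149 FPKM against 30.3 and 16.2. ITGB4, the integrin subunit that binds laminin-332, stood at 300 and 299 FPKM against 128 and 105. In these genes the siRNA libraries were high, and overexpression was the lowest library. KRT15 and FGFBP1, a carrier of fibroblast growth factors, were also called. The list's median of 0.55 log2 units moved with single libraries, to 1.60 without vector and 1.49 without scramble, and to 0.38 without knockdown and 0.40 without overexpression. Between the control libraries alone it was 0.26, with 5 members at least 1 log2 unit higher and 7 lower in scramble. In the colon lineage list 8 of 24 genes were measured and 0 called, near the 7.1% of all measured genes called in either direction. CDH1, E-cadherin, stood at 17.6 and 17.2 FPKM against 10.6 and 8.68, and the simple epithelial keratin KRT19 at 836 and 702 against 498 and 453, both without overlap and short of the rule of size.

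The sterol and fatty acid synthesis list had 5 of 36 measured genes called higher and 0 lower, against 3.46 and 3.63% of all measured genes. Its median was 0.34 log2 units. With values as deposited it was 0.17, with 3 called higher, and with the same sum in each library 0.07, with 2 called higher. Of the 5 calls after centring, 3 were among 20 genes of sterol synthesis and 2 among 7 of its control by SREBP. INSIG1, which holds SREBP in the endoplasmic reticulum and is itself an SREBP target, stood at 37.7 and 39.4 FPKM in scramble and knockdown against 12.3 and 9.43 in vector and overexpression. IDI1, an isomerase of isoprenoid synthesis, stood at 35.9 and 29.0 FPKM against 5.34 and 14.1. MSMO1 and HMGCS1 were also called, and all called members were high in both siRNA libraries. Fatty acid synthesis gave 0 calls among 9 genes, near the 7.1% of all measured genes called in either direction. SCD, the desaturase that makes oleate, stood at 756 and 120 FPKM against 393 and 365, with the plasmid values between those of the siRNA libraries.

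CD68 did not stand for the lysosome as a whole. Of 68 measured lysosome and autophagy genes 3 were called higher, near the 3.46% of all measured genes, 0 were lower, and the median difference was -0.02 log2 units. The others called were NPC1, the cholesterol exporter of the lysosome, at 11.95 and 12.3 FPKM against 4.20 and 3.08, and WIPI1, an early autophagy protein, at 14.9 and 16.1 against 6.74 and 6.43. The 15 proton pump genes and 33 cathepsins and other hydrolases gave 0 calls, against 7.1% of all measured genes called in either direction. LAMP1, a major membrane protein of lysosomes, stood lower in the siRNA pair at 14.0 and 9.08 FPKM against 20.5 and 21.1. The CLEAR core GTCACGTG, bound by TFEB, occurred in 9 of 51 promoters of the list (17.6%), in 2.46% of all promoters and in 4.61% of promoters of measured genes.

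Chaperones of the endoplasmic reticulum were called higher in 4 of 23 genes, against 3.46% of all measured genes, with a median of 0.47 log2 units. HSPA5, the chaperone BiP, stood at 385 and 661 FPKM against 167 and 169, with knockdown the highest library. DNAJB9 and DNAJC3, co-chaperones of BiP, stood at 25.9 and 31.2 FPKM against 5.74 and 6.91, and at 17.6 and 21.4 against 2.62 and 7.61. EDEM1, which sends misfolded glycoproteins to degradation, was called as well. The amino acid response under ATF4 gave 0 calls among 41 genes, against 7.1% of all measured genes called in either direction. Its median was -0.01 log2 units. Of 15 cytosolic heat shock genes the co-chaperone DNAJB1 was called higher (77.7 and 113 FPKM against 27.0 and 38.8), 0 were lower, and the median of -0.29 log2 units was -0.065 without scramble and -0.15 without overexpression. NRF2 targets gave 1 lower call among 20 genes, AKR1B1, and a median of -0.32 that was -0.17 without scramble. A single call in a list of this size is little beyond the 3.46% higher and 3.63% lower of all measured genes. Metallothioneins and metal response genes gave 0 calls among 9, near the 7.1% of all measured genes called in either direction.

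Interferon-stimulated and nucleic acid sensing genes gave 0 calls in either direction, where 7.1% of all measured genes were called. In lists of this size 0 calls is little short of that share. Of 34 interferon-stimulated genes 24 were measured and 0 called. Without overlap 12 lay above and 3 below, against 35.2 and 34.4% of all measured genes, and the median of 0.45 log2 units was 0.28 without scramble. IFIH1, the RNA sensor MDA5, stood at 6.59 and 4.23 FPKM in scramble and knockdown against 1.94 and 1.87 in vector and overexpression, and OAS3, an enzyme activated by double-stranded RNA, at 2.53 and 2.76 against 9.51 and 6.70. These genes differed in opposite directions, each without overlap. The strongly inducible IFIT1 and MX1, singled out after their values were seen, stood below 1 FPKM in all 4 libraries. Of 14 sensors and adaptors of nucleic acid sensing 7 were measured, with a median of -0.25 log2 units that was 0.098 without overexpression. Among 13 genes of RNA interference 1 was called, near the 7.1% of all measured genes called in either direction, and without overlap 6 lay above and 3 below. The called gene was AGO2, the slicer into which siRNAs are loaded, higher at 20.8 and 20.2 FPKM against 5.07 and 8.30. The median of that list, 0.43 log2 units, was -0.03 without scramble. Of 12 measured NF-kB feedback and chemokine genes 10 lay above and 1 below without overlap, against 35.2 and 34.4% of all measured genes. Against 3.46% of all measured genes, 2 of the 12 were called higher: BIRC3, an inhibitor of cell death, at 9.24 and 12.3 FPKM against 1.89 and 2.10, and the chemokine CXCL1 at 4.91 and 3.01 against 0.715 and 1.08.

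Large complexes differed by small amounts in many members at once. Of 78 cytosolic ribosomal protein genes 69 lay above without overlap in the siRNA pair and 0 below, against 35.2 and 34.4% of all measured genes, while 0 were called, and the median difference was 0.67 log2 units. Their summed level was 31448 and 32701 FPKM in scramble and knockdown against 25778 and 22384 in vector and overexpression. RPL11, a protein of the large subunit, stood at 524 and 597 FPKM against 336 and 269. Most of these genes have processed copies in the genome, and reads of such copies could not be told apart here. The proteasome lay the other way, with 29 of 35 genes below without overlap and a median of -0.68 log2 units. Of the 35, 4 were called lower, against 3.63% of all measured genes. PSMB6, a catalytic subunit, stood at 22.6 and 22.2 FPKM against 78.3 and 71.1, and PSME3, the activator PA28 gamma, at 3.65 and 3.62 against 17.9 and 14.9. Both siRNA libraries were low.

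Mitochondrial and nucleolar lists shared the direction of the proteasome. Of 75 mitochondrial ribosomal protein genes 53 lay below and 3 above without overlap, against 34.4 and 35.2% of all measured genes, with a median of -0.42 log2 units. The 4 called lower are near the 3.63% of all measured genes. MRPL16 stood at 4.63 and 4.12 FPKM against 18.3 and 14.9. Of 76 nuclear-encoded respiratory chain genes 58 lay below and 5 above without overlap and 0 were called, with a median of -0.39. Of 45 ribosome biogenesis genes 27 lay below and 1 above without overlap, with a median of -0.28, and 2 were called lower (NHP2 and PES1), again near the share of all measured genes. Among 14 housekeeping genes 3 lay above and 5 below without overlap, and their median was -0.01. The difference between the pairs also moved with gene properties: with the genes cut into 4 equal groups by transcript length, the median was -0.17 log2 units in the shortest and 0.15 in the longest, and with 4 groups by GC content it was 0.11 in the lowest and -0.14 in the highest. With libraries centred within bins of length and GC content, added after the data had been seen, the medians were -1.72 for mitosis, -1.37 for S phase, 0.89 for hypoxia and glycolysis, 0.78 for cytosolic ribosomal proteins and -0.57 for the proteasome.

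**Figure D5:**
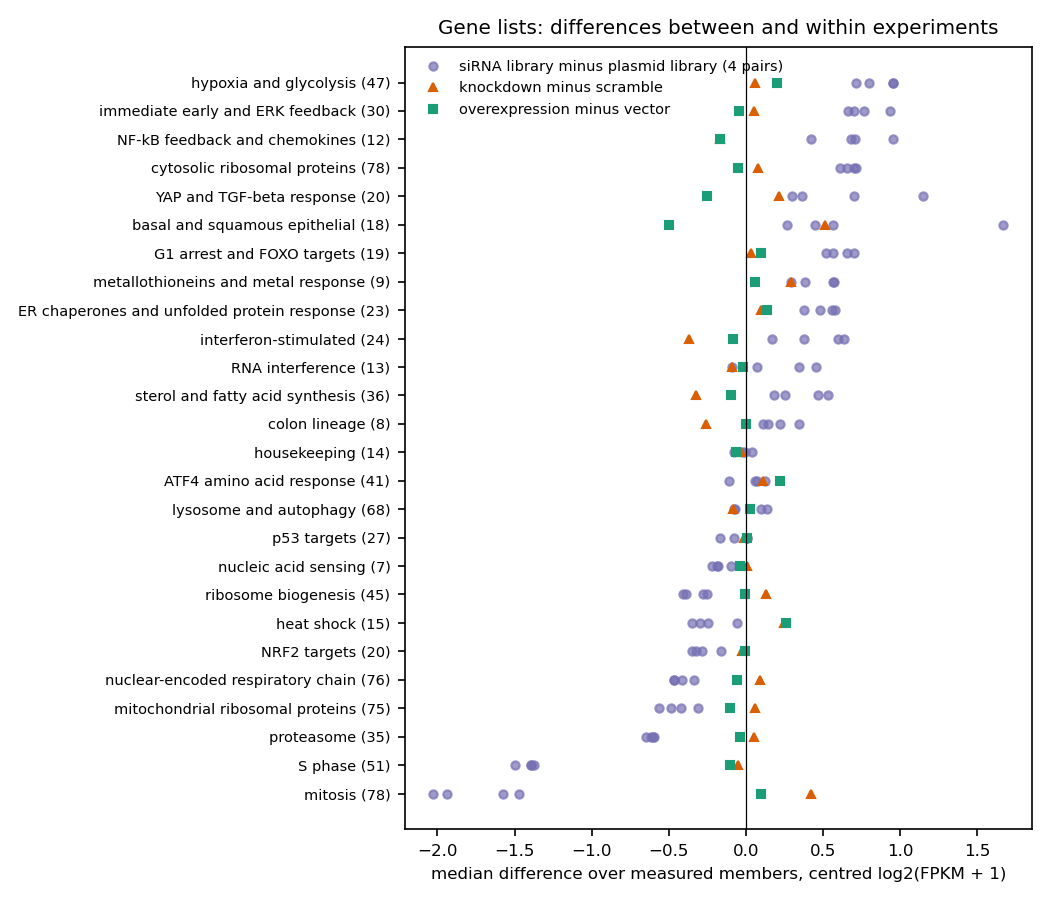
Median difference over the measured members of each list (x axis, centred log2 units; number of members in brackets). The 4 purple circles are an siRNA library minus a plasmid library, triangles knockdown minus scramble and squares overexpression minus vector; the mitosis circles lie between -2.03 and -1.47.

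Genes with few exons separated the pairs more often and more abruptly, with 90 of 890 genes of under 4 exons called (10.1%) against 624 of 9197 with 4 or more (6.78%). GADD45GIP1, a mitochondrial ribosome protein gene of 2 exons, stood at 32.3 and 35.0 FPKM in the siRNA pair and at 0.232 and 0.228 in the plasmid pair. CDCA4, with 3 exons, stood at 0.370 and 0.379 FPKM against 31.4 and 17.7. HNRNPA0, with 1 exon, was listed at 0 in both siRNA libraries and at 23.4 and 17.9 FPKM in the plasmid libraries. These genes were chosen after their values had been seen, by the same gap among genes with few exons or a 0. Whether their near-absence in 1 experiment came from how the 2 tables were made was not tested. Restricting the comparison to genes with 4 or more exons and no 0 left 300 higher (3.26%) and 324 lower (3.52%).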

How the data were processed

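Poly-A RNA of HCT116 cells was sequenced in 4 samples of 1 library each, so each of the 4 groups has no replicate. The submitters' processing notes list STAR, an aligner, and hg38. Quantification software, gene annotation and strandedness are not given in sources used here. The deposited values, in 1 table per experiment, are taken to be FPKM as made by the authors. No header names a unit, so this one was inferred from non-whole values with sums between 181102 and 205734. The tables may have been normalized separately, so levels set across them carry that doubt. Depth is unknown and no counting interval was computed.

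The tables were joined on Ensembl gene, TTC22 was left out, and log2(FPKM + 1) was centred on each library's median over the genes averaging 1 FPKM or more. The pseudocount of 1 understates differences of low genes. A gene was called when every siRNA library lay at least 1 log2 unit beyond every plasmid library. No test was run. Named are the 12 highest and 12 lowest gaps among called genes averaging 5 FPKM or more, 4 or more exons and no 0, up to 5 members of each list or role with the largest differences, and TTC22, CCNB1, NDRG1 and CD68. A few genes that this rule takes are not reported here. The markers, the 27 lists and the rules were chosen with earlier results of these data known. Exons and positions are from GENCODE 44, which held 99.6% of measured genes, and promoters from RefSeq on GRCh38.p14, matched by symbol. Data were also simulated, with normal noise set from the median difference within each pair and changes placed only in genes averaging 5 FPKM or more. Of 100 genes with a log2 change of 1.5, 89% were called, with a change of 2.5 100%, and of 9932 unchanged genes 0%. Such noise lacks the wide differences that 4.32 and 5.19% of genes showed within the experiments. The 0% is therefore no error rate for the real libraries. Python 3.11.15, NumPy 2.4.6, pandas 2.3.3 and Matplotlib 3.10.9 were used.

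Alternatives were a pseudocount of 0.1, no centring, the same sum in each library, other filters and gaps, genes with 4 or more exons, single libraries left out, and controls or treated libraries alone. Centring within bins of length and GC content was added after the data had been seen.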

Additional observations from a re-analysis of the deposited data

How the results depend on the processing

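Against 351 genes higher and 368 lower, a pseudocount of 0.1 FPKM gave 539 and 614, values as deposited 220 and 505, and the same sum in each library 169 and 658. A gap of 0.5 log2 units gave 1218 and 1238, a gap of 2 gave 26 and 33, and no overlap with a difference of means of at least 1 gave 684 and 688. Leaving out 1 library gave 500 to 619 higher and 516 to 628 lower, the control libraries alone 858 and 878, and the treated libraries alone 873 and 817; these hold fewer libraries to separate by construction. No filter gave 360 and 369, a mean of at least 5 FPKM 244 and 247, and length and GC bins 379 and 360, of which 292 and 298 were among the 351 and 368. In these 16 alternatives 0 called genes received the opposite call. Of 153 called list members and 26 named genes 0 turned in sign. Most alternatives could not turn a called gene, since values at least 1 log2 unit apart keep their order when libraries, filters or gaps change. The scalings without centring moved the median of all measured genes only to -0.15 and -0.24. The mean share of genes at least 1 log2 unit apart between experiments, 17.0%, was 3.89% with no filter, since most of the 47250 genes then compared are near 0. Medians over 0.2 in size that turned, among lists with more than 2 measured members, were RNA interference, at -0.032 without scramble, colon lineage, at -0.058 with the same sum, and nucleic acid sensing, at 0.071 with no filter, 0.103 with a mean of at least 5 FPKM and between -0.25 and 0.098 with 1 library left out; the cause was not tested. Medians nearer 0 also turned: ATF4 response (up to 0.115 without scramble), lysosome (up to 0.169 without knockdown), housekeeping (up to 0.038 with controls alone) and p53 targets (0.007 with controls alone). Relative to the median of all measured genes, no list median turned under either scaling without centring, since this takes the common shift out again. No paired analysis was possible because each group holds 1 library and the labels give no replicate numbers.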
